A study of Homo sapiens with 6 samples.

Results

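The genes of the NRF2 antioxidant response and of glutathione production were followed by RNA-seq in HT29 cells, a human colorectal adenocarcinoma line. The 9 genes NFE2L2, KEAP1, NQO1, GCLC, GCLM, TXNRD1, SRXN1, HMOX1 and GPX2 were given by name as members of this pathway, and all were found among the 60676 genes listed. Cells were kept for 48 h in control medium (untreated), in medium without histidine (Hdepl) or in medium without tryptophan (Wdepl), and 2 libraries were sequenced per condition. No group carried a transgene, a deletion or a drug. RPMI was the base of the histidine-free medium, DMEM F-12 that of the tryptophan-free one, each with dialyzed serum, and the base of the control medium is not given for the RNA-seq. For proteomics of the same depletions the methods of the study name full RPMI as control, and a method given for that assay is not given for this one. Between the depletions the missing amino acid and the base medium cannot be told apart, and against untreated cells a part of the base medium was not tested.

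NRF2, the product of NFE2L2, is a transcription factor that KEAP1 holds in the cytoplasm and hands to a ubiquitin ligase for degradation. When electrophiles or oxidants modify the cysteines of KEAP1, NRF2 escapes, pairs with small MAF proteins and binds antioxidant response elements near its target genes. GCLC and GCLM are the catalytic and modifier subunits of glutamate-cysteine ligase, the enzyme that limits glutathione synthesis. GPX2 is the glutathione peroxidase of the gut epithelium, TXNRD1 the cytosolic thioredoxin reductase, and SRXN1 the sulfiredoxin that repairs peroxiredoxins. NQO1 reduces quinones, and HMOX1 breaks down heme. In the intestine these genes are known for handling peroxides and dietary electrophiles.

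The antioxidant response element was looked for in the promoters of the members, because it is the sequence to which NRF2 binds. Its core, TGACNNNGC, was searched on both strands of windows that run from 250 bases before to 50 bases after each start site of RefSeq (GRCh38.p14). Of the 9 members, 8 had a window, with 11 windows in all. The core stood in windows of 4 of them, KEAP1, GCLM, TXNRD1 and GPX2, against 13.3% of all 35116 windows and 16.1% of the 27305 genes with a window. KEAP1 held 2 matches and TXNRD1 3. In each of these 4 genes 1 match was followed directly by A, a longer form that was found in 3.18% of all windows and 3.94% of the genes. Those 4 matches are shown because they let the elements of the strongly and the weakly moving genes be compared. Capitals mark the core, and each sequence is given 5′ to 3′ on the strand that carries it.
KEAP1, chr19:10502783-10502812, plus strand: gcaggtcaccaTGACTAAGCagagccgggc
GCLM, chr1:93909445-93909474, plus strand: ctggaagacaaTGACTAAGCagaaatcgta
TXNRD1, chr12:104286920-104286949, minus strand: cagagtcagaaTGACAAAGCagaaatccac
GPX2, chr14:64942848-64942877, plus strand: catccccaggaTGACTTAGCaaaaacaggt
The cores of KEAP1 and GCLM have the same letters, and all 4 lie on the strand opposite to the gene. Their centres are 27 bases upstream of the start in KEAP1, 30 in GCLM, 98 in TXNRD1 and 118 in GPX2. The windows of NFE2L2, NQO1, GCLC and SRXN1 held no such letters, and elements farther away were not searched.

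The libraries held 46390819 to 64388876 reads, recovered from the deposited normalized counts. HT29 identity was checked against 10 colon epithelium markers. Of these, 9 were detected in every library, and CDX1 was at 18.9 to 21.9 normalized counts in untreated cells, 2.75 to 5.34 after tryptophan depletion and 0 reads after histidine depletion. KRT20 was at 10264 and 10759 in untreated, 34599 and 35062.5 in histidine-depleted and 55379 and 54901 in tryptophan-depleted cells, and LGALS4 at 54147.5 and 56465, 17513 and 19659.8, and 60596 and 59472.5. The 10 summed to 429078 to 455459 normalized counts in untreated, 525840.0 to 554270.0 in histidine-depleted and 599320.0 to 602643 in tryptophan-depleted cells. Most of this sum was KRT8 and KRT18. From untreated to histidine-depleted cells KRT8 went from 186625 and 201539 to 320941 and 340439. KRT18 went from 118089 and 123660 to 81036 and 86412. After histidine depletion CDX1, CDX2, VIL1, CDH17, KRT18 and LGALS4 were lower than in untreated cells, and EPCAM, CDH1, KRT8 and KRT20 higher. Of 12 mast cell and leukocyte markers, 8 were at or under 3 reads in every library and 3 of these at 0 throughout. The sum of that list was 64946 to 69600 normalized counts in untreated, 12580.3 to 14605 in histidine-depleted and 38420 to 38440 in tryptophan-depleted cells, and nearly all of it was LYZ, which intestinal cells can also express. The 8 fibroblast and endothelium markers summed to 81.3 to 129 normalized counts. Whether a shift in cell state had a part in the results below was not tested.

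After histidine depletion most of the members fell. Of the 8 that could be tested, GPX2, NQO1, NFE2L2, KEAP1, GCLM and GCLC were lower than in untreated cells, TXNRD1 was higher, and HMOX1 was not called (limma, adjusted p under 0.05 over all genes). The background was wide, since 77.3% of 18288 tested genes were called, 39.1% higher and 38.2% lower. A log2 fold change of at least 1 in size as well as a call was found in 3 of the 8, GPX2, NQO1 and TXNRD1, and in 32.5% of all tested genes. The median log2 fold change of the 8 genes was -0.35, against 0.010 for all tested genes. A normalized count here is a number of reads divided by a size factor of the library, and in bulk RNA fewer cells of a type cannot be told apart from less RNA per cell.

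After tryptophan depletion 6 of the 8 were called higher. TXNRD1, GCLC, GCLM, GPX2, NQO1 and NFE2L2 were higher than in untreated cells, HMOX1 was lower and KEAP1 was not called. The increases of NQO1 and NFE2L2 were small (1.10- and 1.09-fold) and were not called with quantile normalization or without the trend. Among all 17960 genes tested 70.8% were called, 36.1% higher and 34.8% lower. TXNRD1 and GCLC also had a log2 fold change of at least 1, as did 20.5% of all. The median log2 fold change was 0.30 for the 8 genes and 0.013 for all. Both depletions were compared with the same untreated libraries.

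In the direct comparison, 7 of the 8 were lower after histidine than after tryptophan depletion, and HMOX1 was higher. Here 76.7% of 18264 genes were called, 38.7% higher and 38.0% lower. The difference was at least 1 on the log2 scale in 3 of the 8, GPX2, NQO1 and GCLC, and in 31.7% of all. The medians were -0.73 for the 8 genes and 0.011 for all. Together the 9 genes took 0.222% and 0.226% of the reads of untreated cells. This share was 0.163% and 0.166% in the histidine-depleted libraries and 0.376% and 0.388% in the tryptophan-depleted ones, so the libraries of each condition stood apart from those of the others.

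**Figure D1:**
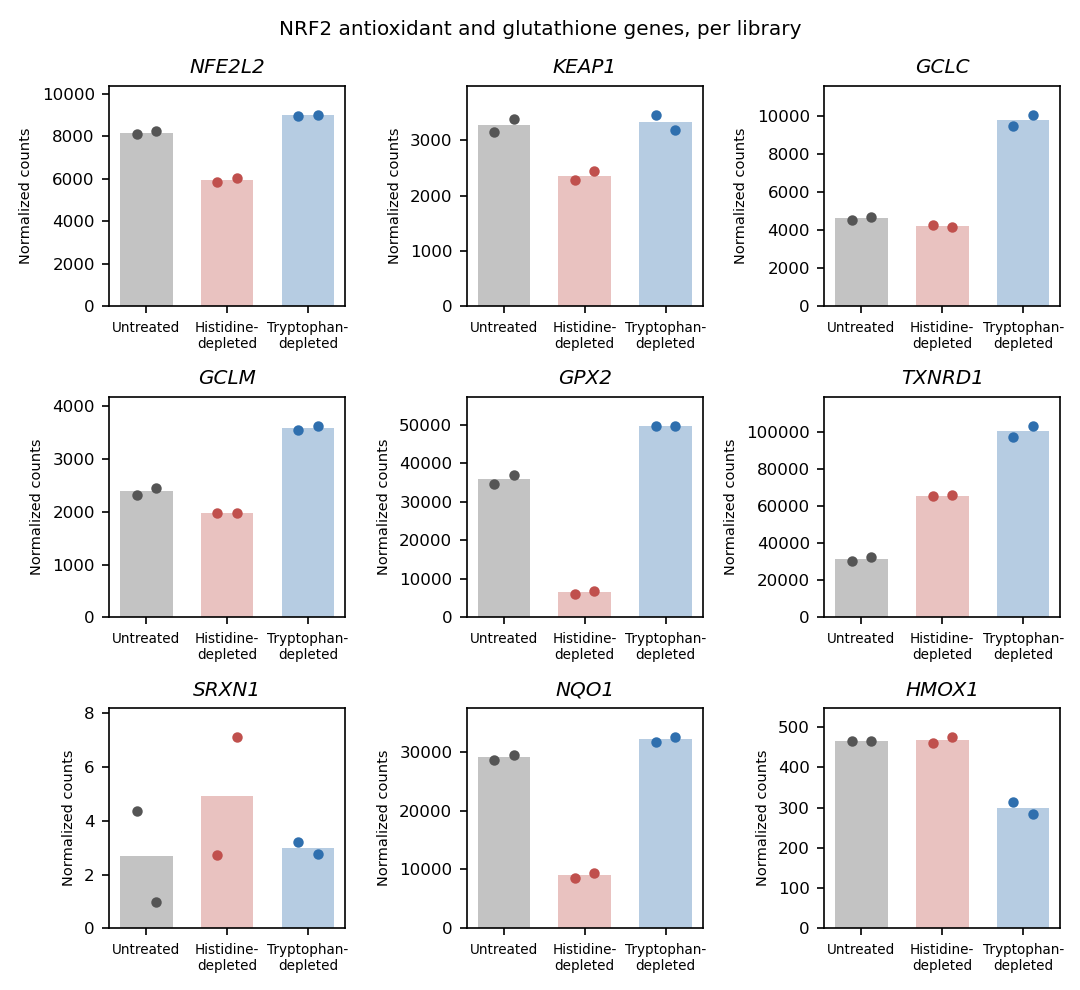
Normalized counts of the 9 genes in each of the 6 libraries, scaled together, with points for libraries and bars for the mean of 2. GPX2 and NQO1 are low in the histidine-depleted libraries, TXNRD1 is above untreated in both depletions, and SRXN1 stays at 1 to 7 reads everywhere.

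**Figure D2:**
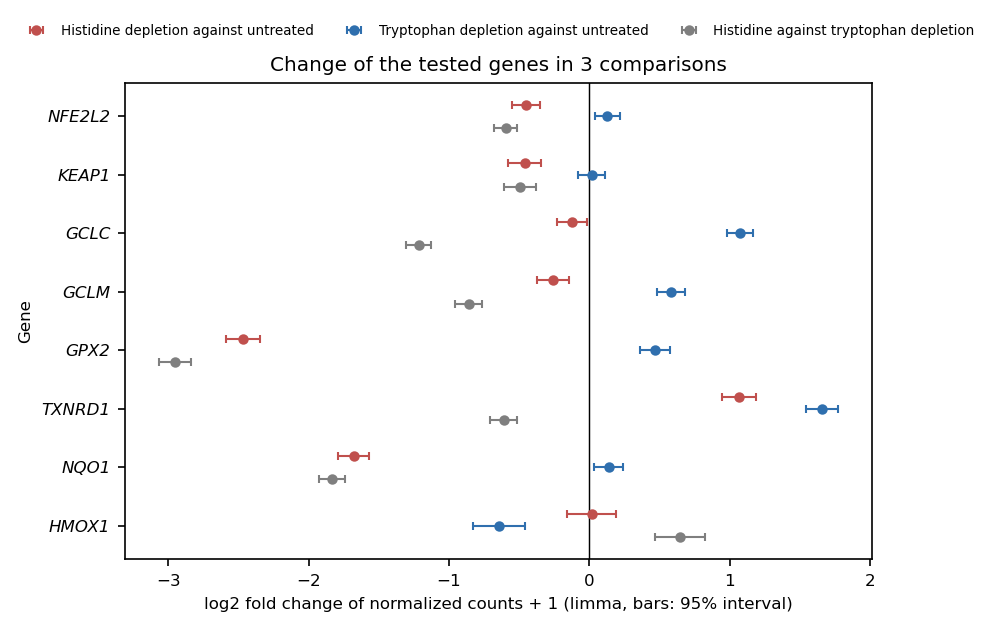
Log2 fold change of the 8 tested genes on the log2(normalized count + 1) scale, with 95% intervals from limma, for each depletion against untreated and for histidine against tryptophan depletion. GPX2 has the largest decrease after histidine depletion (-2.47) and TXNRD1 the largest increase after tryptophan depletion (1.66).

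In the values per library that follow, the reads of all 6 libraries were scaled together, while each fold change against untreated came from the fit within the deposited table of that depletion. Beginning with the transcription factor and its sensor, NFE2L2 (ENSG00000116044, chromosome 2, 177218667 to 177392756, minus strand, GRCh38) had 8099 and 8240.5 normalized counts in untreated cells, 5840.2 and 6033 without histidine, and 8945 and 9015 without tryptophan. The groups did not overlap, with the histidine-depleted libraries lowest. The log2 fold change was -0.45 after histidine depletion (SE 0.049; limma, adjusted p = 1.02e-08) and 0.13 after tryptophan depletion (SE 0.046; limma, adjusted p = 0.00982). The second of these is a 1.09-fold difference. With quantile normalization it was 0.047 on the log2 scale and not called (limma, adjusted p = 0.137). It was 0.14 without Wdepl replicate 1 and 0.12 without replicate 2. There 1 library was left in that group, and the call was lost. Between the depletions the difference was -0.60 (limma, adjusted p = 1.50e-10). Exons of other genes cover 24.8% of the exon bases of NFE2L2 on the opposite strand (HNRNPA3 and AGPS among them) and 13.6% on the same strand, and how reads there were assigned is not given in the sources used here.

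KEAP1 (ENSG00000079999, chromosome 19, 10486125 to 10503558, minus strand), the adaptor that targets NRF2 for degradation, had 3157 and 3396 normalized counts in untreated cells. It had 2280.4 and 2447 without histidine and 3465 and 3197 without tryptophan. The histidine-depleted libraries were below all others, whereas the tryptophan-depleted libraries overlapped with the untreated ones. KEAP1 fell by 0.46 on the log2 scale after histidine depletion (SE 0.056; limma, adjusted p = 7.12e-08), a 1.38-fold decrease close to that of NFE2L2. After tryptophan depletion its log2 fold change was 0.016, with a 95% interval from -0.082 to 0.11 (limma, adjusted p = 0.782). The mRNA levels of this pair say nothing on the amount of NRF2 protein, which is set mainly by degradation and was not measured here.

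The ligase subunits moved in opposite directions in the depletions. GCLC (ENSG00000001084, chromosome 6, 53497341 to 53616970, minus strand) had 4555 and 4702 normalized counts in untreated cells, 4260.0 and 4186 without histidine, and 9517 and 10092.5 without tryptophan. The tryptophan-depleted libraries stood far above the rest, and the histidine-depleted ones were just below untreated, without overlap. GCLC rose 2.11-fold after tryptophan depletion (log2 fold change 1.08, SE 0.047; limma, adjusted p = 1.79e-47). Its decrease after histidine depletion was 1.09-fold (log2 fold change -0.12; limma, adjusted p = 0.0303). The value was -0.097 without untreated replicate 2, -0.14 without Hdepl replicate 1 and -0.11 without Hdepl replicate 2. In these fits 1 library was left in a group, and the call was lost. With quantile normalization the decrease was larger, -0.27 (limma, adjusted p = 4.87e-05).

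GCLM (ENSG00000023909, chromosome 1, 93885199 to 93909456, minus strand), the subunit that makes the ligase more efficient, had 2324 and 2453 normalized counts in untreated cells. The values were 1988 and 1980.0 without histidine and 3559.8 and 3634 without tryptophan. The order of the 3 conditions was that of GCLC, again without overlap. GCLM fell by 0.26 on the log2 scale after histidine depletion (SE 0.056; limma, adjusted p = 0.000195) and rose by 0.58 after tryptophan depletion (SE 0.050; limma, adjusted p = 1.50e-21). Compared directly, GCLC was 2.32-fold and GCLM 1.81-fold lower after histidine than after tryptophan depletion (limma, adjusted p = 2.95e-14 and 9.57e-12).

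Among the enzymes that use glutathione or thioredoxin, GPX2 (ENSG00000176153, chromosome 14, 64939152 to 64942746, minus strand) had the largest change of the members. It had 34662.5 and 36943 normalized counts in untreated cells, 5983 and 6908 without histidine, and 49619 and 49754.5 without tryptophan. The histidine-depleted libraries were far below the others and the tryptophan-depleted ones highest. GPX2 was 5.52-fold lower after histidine depletion (log2 fold change -2.47, SE 0.060; limma, adjusted p = 4.23e-21), and 1.90% of the tested genes had a lower value. It was 1.38-fold higher after tryptophan depletion (log2 fold change 0.47, SE 0.055; limma, adjusted p = 9.81e-14), and the log2 fold change was 0.26 with quantile normalization. Between the depletions the difference reached 7.71-fold (log2 -2.95; limma, adjusted p = 1.76e-17).

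TXNRD1 (ENSG00000198431, chromosome 12, 104215779 to 104350307, plus strand) was the only tested member called higher in both depletions. It had 30589 and 32512 normalized counts in untreated cells, 65287 and 65746 without histidine, and 97073.5 and 103196 without tryptophan. The groups were well apart, in that order. The increase was 2.09-fold after histidine depletion (log2 fold change 1.06, SE 0.058; limma, adjusted p = 2.61e-14) and 3.16-fold after tryptophan depletion (1.66, SE 0.058; limma, adjusted p = 4.20e-58). The level after histidine depletion was 1.53-fold below that after tryptophan depletion (limma, adjusted p = 1.53e-09). GPX2 and TXNRD1 both carry the core followed by A in a promoter window and moved in opposite directions after histidine depletion. That match of TXNRD1 stands before a start site inside the gene, and use of this site in HT29 was not examined. Binding of NRF2 was not measured, and a part of these matches in the changes was not tested.

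SRXN1 (ENSG00000271303, chromosome 20, 646615 to 653200, minus strand) could not be compared. The untreated libraries held 4 and 1 of its reads, the histidine-depleted ones 3 and 7, and the tryptophan-depleted ones 3 each, below the mean of 10 normalized counts needed for a test. The groups overlapped at this depth. Exons of ENSG00000270299 cover 90.7% of its exon bases on the same strand, and that gene had 0 to 3 reads per library. The part of this overlap in the low counts was not tested, and they cannot be read as absence of SRXN1 mRNA.

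Of the detoxifying enzymes, NQO1 (ENSG00000181019, chromosome 16, 69706996 to 69726668, minus strand) had 28619 and 29468 normalized counts in untreated cells. The values were 8621 and 9413 without histidine and 31722.5 and 32538 without tryptophan. The histidine-depleted libraries were far below the others, and the tryptophan-depleted ones slightly above untreated, without overlap. NQO1 was 3.20-fold lower after histidine depletion (log2 fold change -1.68, SE 0.053; limma, adjusted p = 7.04e-19). The 1.10-fold increase after tryptophan depletion (log2 fold change 0.14; limma, adjusted p = 0.0131) turned to -0.036 with quantile normalization (limma, adjusted p = 0.217). It was 0.16 without Wdepl replicate 1 and 0.11 without replicate 2. There 1 library was left in that group, and the call was lost. The direct difference was 3.56-fold (limma, adjusted p = 3.40e-16). An opposite-strand transcript, ENSG00000261602, covers 19.4% of its exon bases.

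HMOX1 (ENSG00000100292, chromosome 22, 35380361 to 35394214, plus strand), the heme oxygenase, was the only tested member called lower after tryptophan depletion. It had 467 and 464 normalized counts in untreated cells, 459.9 and 476 without histidine, and 314 and 285 without tryptophan. Untreated and histidine-depleted libraries overlapped, and the tryptophan-depleted ones were lower. HMOX1 was 1.56-fold lower after tryptophan depletion (log2 fold change -0.65, SE 0.093; limma, adjusted p = 4.30e-10). After histidine depletion its log2 fold change was 0.016, with a 95% interval from -0.16 to 0.19 (limma, adjusted p = 0.869), but with quantile normalization it was called higher (0.25; limma, adjusted p = 0.0101).

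Levels were compared between genes as RPKM, the reads per base of merged exons scaled to the total reads of the library. In untreated cells GPX2 was at 519 ± 11.8, NQO1 at 189.8 ± 0.30 and TXNRD1 at 91.3 ± 1.91 (SD, n = 2). The level of GPX2 was above that of 99.7% of the detected protein-coding genes. KEAP1 (17.8 ± 0.52), NFE2L2 (10.6 ± 0.11), GCLC (10.4 ± 0.0025), GCLM (8.54 ± 0.14) and HMOX1 (3.92 ± 0.10) followed, and the neighbours NFE2L2 and GCLC were hardly apart, with libraries from 10.5 to 10.7 and at 10.4. The merged exons hold those of every annotated transcript, 14975 bases for NFE2L2 against 3573 for KEAP1 and 2971 for NQO1. The level of NFE2L2 on this scale is thus low for a gene that uses few of them, and its place in the order is uncertain. Merged exons are also long for GCLC (8618 bases), TXNRD1 (6710) and GCLM (5426), against 1340 for GPX2. The places of these genes depend on this length too, in each condition.

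Histidine depletion changed this order, with TXNRD1 at 167 ± 0.0057, GPX2 at 82.4 ± 7.95 and NQO1 at 52.0 ± 2.97. Farther down, GCLC at 8.39 ± 0.15 stood above NFE2L2 at 6.79 ± 0.12, the reverse of untreated cells. After tryptophan depletion it was GPX2 at 682 ± 0.33, TXNRD1 at 274 ± 11.2 and NQO1 at 198.8 ± 3.09. GCLC reached 20.9 ± 0.82 and passed KEAP1 at 17.1 ± 1.02, while NFE2L2 was at 11.02 ± 0.033. HMOX1 was the lowest of the 8 in each condition. Because this scale divides by total reads and not by a size factor, HMOX1 was at 3.43 and 3.52 after histidine depletion, below the 3.99 and 3.85 of untreated cells.

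**Figure D3:**
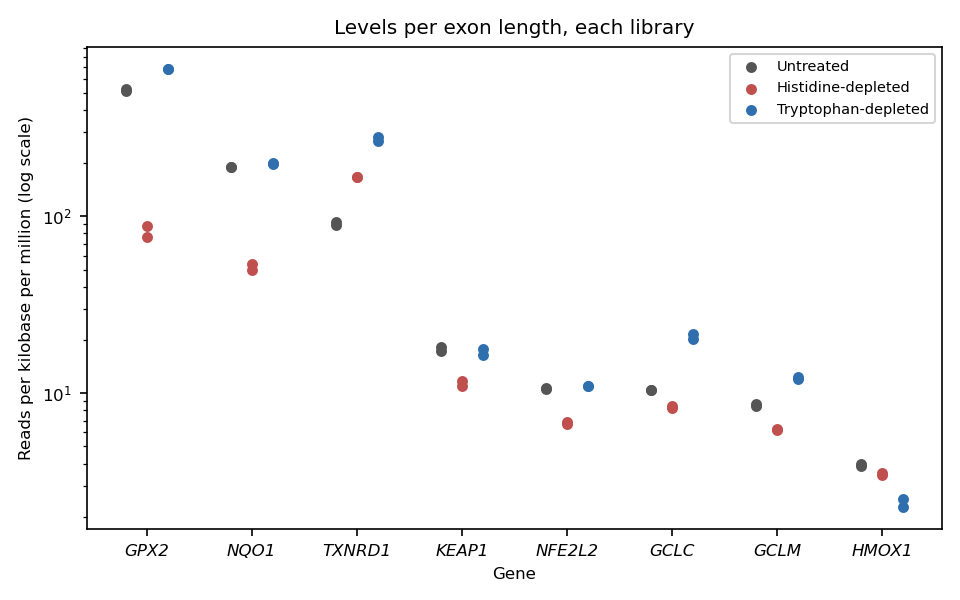
RPKM, reads scaled to exon length and total reads (log axis), of the 8 tested genes in each library, ordered by the mean in untreated cells. TXNRD1 is the highest of the 8 after histidine depletion (167), and GPX2 in untreated (519) and tryptophan-depleted cells (682).

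The depleted amino acids were also counted in the coding sequences of the members, from the GENCODE release 44 transcripts, as a description. GPX2 has 2 histidine codons among 190, or 1.05% against a median of 2.43% over 19755 coding genes. This share is at percentile 8.44 of these genes, by a rank that averages ties. KEAP1 has 20 among 624 (3.21%) and NFE2L2 17 among 605 (2.81%). Tryptophan codons make up 2.19% of GCLM and NQO1, 0.331% of NFE2L2 and a median of 1.13% of all. KEAP1, the cysteine sensor, has 27 cysteine codons (4.33%), above the median of 2.02%. GPX2 and TXNRD1 each have 1 in-frame TGA, the codon that selenoproteins read as selenocysteine, which was found in 38 of the 19755 genes (0.192%).

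Around these members, 125 other genes of the pathway were grouped in 8 lists by function. After histidine depletion 38 of 115 tested were higher and 64 lower (33% and 55.7%, beside 39.1% and 38.2% of all tested genes), and after tryptophan depletion 58 of 116 were higher and 41 lower (50% and 35.3%, beside 36.1% and 34.8%). The share of higher genes in the former and of lower genes in the latter was thus near that of all genes. Compared directly, 35 of 117 were higher and 70 lower after histidine depletion (29.9% and 59.8%, beside 38.7% and 38.0%). Some genes belong to more than 1 list, and the lists were read by counts and medians only, with no test of a list. In the paragraphs on these lists, changes are log2 fold changes against untreated, and where 2 are given for a gene, histidine depletion comes before tryptophan depletion.

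**Figure D4:**
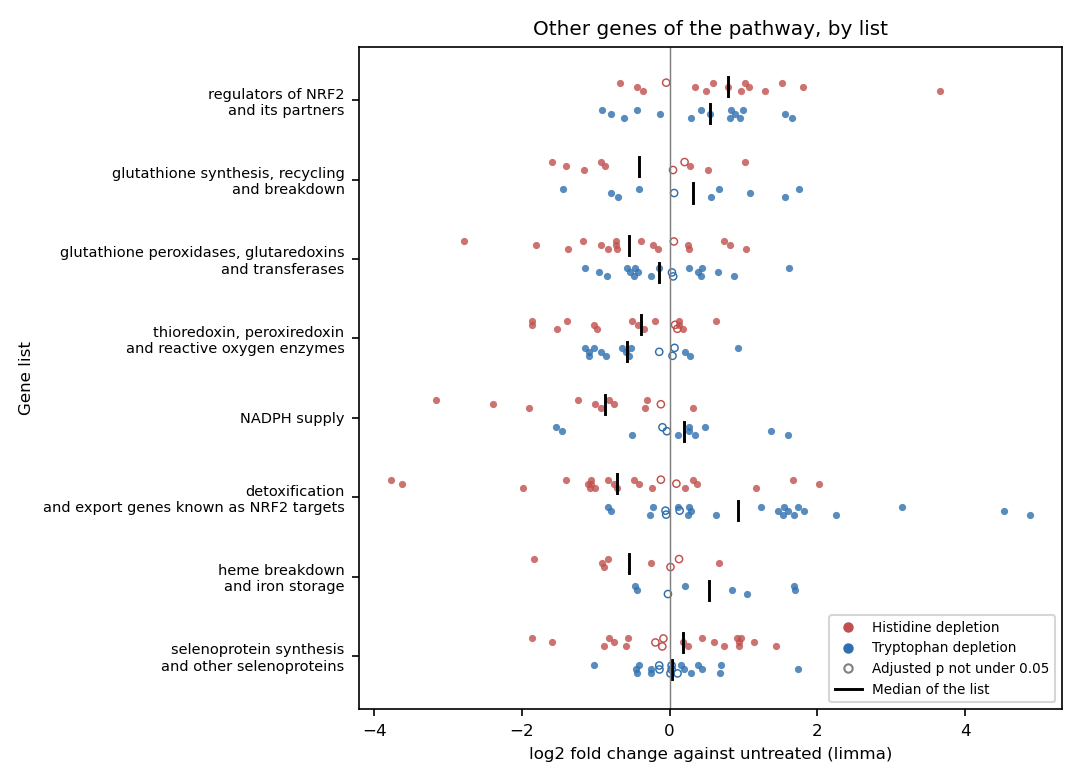
Log2 fold change against untreated of the tested genes in 8 lists, red for histidine and blue for tryptophan depletion, with open points for genes that were not called and black lines for the median. In the detoxification list the median is -0.71 after histidine and 0.93 after tryptophan depletion.

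Of 15 regulators and partners of NRF2, 11 were higher and 3 lower after histidine depletion (median 0.78), and 10 higher and 5 lower after tryptophan depletion (median 0.54). Of all tested genes, 39.1% were higher and 38.2% lower after histidine depletion, and 36.1% higher and 34.8% lower after tryptophan depletion. The share of lower regulators after tryptophan depletion was near this background. SQSTM1, the autophagy receptor that binds KEAP1, rose from 19837 ± 863 to 250607 ± 1039 normalized counts after histidine depletion (SD, n = 2; log2 fold change 3.66; limma, adjusted p = 9.92e-24). After tryptophan depletion it rose by 1.57 on the log2 scale (limma, adjusted p = 6.57e-60). MAFK, MAFF and MAFG, the small partners with which NRF2 binds DNA, were higher in both depletions. MAFK led after histidine depletion with 1.81 (limma, adjusted p = 4.34e-19), and MAFF after tryptophan depletion with 0.96 (limma, adjusted p = 3.30e-36). BACH1, a repressor at the same elements, also rose, by 0.97 and 0.81. NFE2L1, a relative of NFE2L2, rose by 1.66 after tryptophan depletion (limma, adjusted p = 5.80e-66), and its value after histidine depletion was -0.047 (limma, adjusted p = 0.405), but -0.31 and called lower with quantile normalization (limma, adjusted p = 8.27e-06). RBX1, the ring subunit of the ligase that KEAP1 serves, rose by 1.29 after histidine and fell by 0.92 after tryptophan depletion.

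Of 10 genes of glutathione synthesis, recycling and breakdown, 3 were higher and 5 lower after histidine depletion (median -0.41), and 5 higher and 4 lower after tryptophan depletion (median 0.31). Among all tested genes 39.1% and 38.2%, and 36.1% and 34.8%, were called in these directions, so a split both ways is also what all genes show. GSS, the enzyme after glutamate-cysteine ligase, rose by 0.52 and 0.67, and the former was down to 0.31 among the alternatives. GSR, which recycles oxidized glutathione, fell by 0.87 after histidine and rose by 0.56 after tryptophan depletion. SLC7A11, the cystine importer, fell from 17025 ± 443 to 6416 ± 88.2 normalized counts after histidine depletion (log2 fold change -1.41; limma, adjusted p = 4.79e-18) and by 0.79 after tryptophan depletion, whereas its partner SLC3A2 rose by 1.02 and 1.08. OPLAH, which returns 5-oxoproline to glutamate, fell by 1.59 after histidine and rose by 1.75 after tryptophan depletion (limma, adjusted p = 5.52e-11 and 3.13e-47). CHAC1, which degrades glutathione, rose by 0.27 and 1.56, and GGCT fell by 1.17 and 1.44.

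Of the peroxidases, glutaredoxins and transferases that use glutathione, 5 were higher and 12 lower of 18 after histidine depletion (median -0.55), and 7 higher and 10 lower of 19 after tryptophan depletion (median -0.14). Of all tested genes 39.1% were higher and 38.2% lower after histidine depletion, and 36.1% higher and 34.8% lower after tryptophan depletion. The share of higher genes of the list after tryptophan depletion was near this background. After histidine depletion the transferase GSTA4 fell by 2.78 on the log2 scale and GSTO2 fell by 1.81 (limma, adjusted p = 3.19e-16 and 6.91e-17). GSTP1, the most abundant transferase of the list by normalized counts, fell from 34581 ± 2079 to 18144 ± 1126 after histidine depletion and by 1.14 after tryptophan depletion. GPX1, the widely expressed relative of GPX2, rose by 0.74 after histidine depletion and fell by 0.26 after tryptophan depletion, thus opposite to GPX2. GPX4, which reduces lipid peroxides, rose by 0.24 and 0.38, but the former was -0.031 with quantile normalization. GPX1 after tryptophan depletion lost its call without the trend (limma, adjusted p = 0.124). GLRX, a glutaredoxin, rose by 1.62 after tryptophan depletion (limma, adjusted p = 9.67e-55).

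Of 16 thioredoxin, peroxiredoxin and reactive oxygen enzymes, 10 were lower in each depletion, with 4 higher after histidine and 3 after tryptophan depletion (medians -0.39 and -0.57). Lower genes made up 38.2% and 34.8% of all tested, and higher genes 39.1% and 36.1%. With quantile normalization 2 were higher and 11 lower after histidine depletion, and the medians were -0.63 and -0.61. TXN, the substrate of TXNRD1, fell by 0.42 and 0.87 while TXNRD1 rose. The value of TXN after histidine depletion reached -0.70 among the alternatives. Catalase (CAT) fell by 1.87 after histidine depletion (limma, adjusted p = 1.51e-18) and by 0.94 after tryptophan depletion. The mitochondrial peroxiredoxin PRDX3 fell by 1.02 and 1.09 and PRDX2 by 0.98 and 1.14. The mitochondrial reductase TXNRD2 rose by 0.18 (0.080 and not called with quantile normalization) and fell by 1.02, and TXNRD3 fell by 1.86 after histidine depletion.

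NADPH feeds both reductase systems. Of 12 genes that supply it, 1 was higher and 10 lower after histidine depletion (median -0.87), and 7 were higher and 3 lower after tryptophan depletion (median 0.19). With quantile normalization the latter were 6 and 4, with a median of 0.047. Of all tested genes 39.1% were higher and 38.2% lower after histidine depletion, and 36.1% higher and 34.8% lower after tryptophan depletion. IDH2, the mitochondrial isocitrate dehydrogenase, fell from 6214 ± 347 to 695 ± 67.0 normalized counts after histidine depletion (log2 fold change -3.16; limma, adjusted p = 1.69e-22) and by 1.54 after tryptophan depletion. Its cytosolic counterpart IDH1 fell by 1.24 after histidine and rose by 1.37 after tryptophan depletion (limma, adjusted p = 3.03e-16 and 5.46e-58). ME1, the malic enzyme, rose by 1.60 after tryptophan depletion (limma, adjusted p = 1.85e-65).

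The detoxification and export genes known as NRF2 targets had the lowest median of the 8 lists in the direct comparison of the depletions, -1.36. Of 23 tested, 6 were higher and 15 lower after histidine depletion (median -0.71), beside 39.1% and 38.2% of all genes. Of 24 tested, 17 were higher and 4 lower after tryptophan depletion (median 0.93), beside 36.1% and 34.8% of all genes. Compared directly, 21 of 24 were lower after histidine than after tryptophan depletion and 2 higher, beside 38.0% and 38.7% of all tested genes. AKR1B10, an aldo-keto reductase, fell from 3790.4 ± 64.8 to 277 ± 18.3 normalized counts after histidine depletion (log2 fold change -3.77; limma, adjusted p = 2.00e-23) and rose by 1.54 after tryptophan depletion. AKR1C1 rose from 1457 ± 37.7 to 33502 ± 618 after tryptophan depletion (4.52; limma, adjusted p = 2.77e-124), and AKR1C2 and AKR1C3 rose by 4.88 and 2.26. These AKR1C genes are close copies, so reads may be split unevenly among them. TRIM16 and OSGIN1 went against the list after histidine depletion, with increases of 2.02 and 1.67. UGT1A6, a glucuronosyltransferase, fell by 3.62 after histidine depletion, and its exons are partly shared with other genes of its locus.

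Of 8 genes for heme breakdown and iron storage, 1 was higher and 5 lower after histidine depletion (median -0.55). This stands beside 39.1% and 38.2% of all tested genes. After tryptophan depletion 5 were higher and 2 lower (median 0.53), beside 36.1% and 34.8% of all. With quantile normalization 6 were lower after histidine depletion, FTH1 among them (-0.25; limma, adjusted p = 0.000165). The ferritin chains FTH1 and FTL rose by 1.69 and 1.70 after tryptophan depletion (limma, adjusted p = 7.58e-68 and 4.13e-42), in which HMOX1 fell. They have 25 and 16 annotated pseudogenes of their name, which makes their counts uncertain. The iron exporter SLC40A1 fell by 0.90 after histidine and rose by 1.05 after tryptophan depletion, and FECH, the last enzyme of heme synthesis, fell by 1.84 and 0.44.

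Among the genes of selenoprotein synthesis and the other selenoproteins, 11 were higher and 7 lower of 21 after histidine depletion (median 0.18), and 8 higher and 6 lower of 20 after tryptophan depletion (median 0.027). With quantile normalization the former count was 8 higher and 8 lower, and the medians were 0.080 and 0.045. Of all tested genes 39.1% were higher and 38.2% lower after histidine depletion, and the share of lower genes in the list was near this. After tryptophan depletion the counts were near the background of 36.1% higher and 34.8% lower. SELENOS, a selenoprotein of the endoplasmic reticulum, rose by 1.45 and 0.69 (limma, adjusted p = 4.88e-18 and 2.18e-28). SELENON fell by 1.60 after histidine depletion (limma, adjusted p = 8.50e-12). SEPHS2, which makes the selenium donor, fell by 0.59 after histidine and rose by 0.68 after tryptophan depletion, the directions of GPX2.

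The genes whose pattern over the 6 libraries was nearest to that of GPX2 were searched among 13180 protein-coding genes, by the root mean square difference of log2 values centred on the untreated mean. They were PRR15L (0.0831), STRADB (0.113), SLC2A10 (0.116), KIF12 (0.121) and ALDH1L1 (0.123). PRR15L had 1859.7 ± 19.4 normalized counts in untreated cells, 327 ± 68.7 after histidine depletion and 2495 ± 55.5 after tryptophan depletion (SD, n = 2). Of these 5, ALDH1L1, a folate enzyme that makes NADPH, is also in the NADPH list.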

How the data were processed

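HT29 RNA-seq covered 6 libraries, 2 per condition. The authors aligned reads with STAR 2.7.10a to GRCh38 and assigned them to exons by htseq-count (HTSeq 2.0.5), with an earlier GENCODE release. They normalized with DESeq2 and deposited normalized counts (a signal of 0 or more) in 1 table per depletion, each with the same untreated libraries. By their account only protein-coding genes were counted. The 60676 genes listed are more than the 19755 coding genes. In the direct comparison 18264 genes were tested, while only 13180 tested protein-coding genes were there to compare with GPX2. The background of all tested genes thus also holds genes not annotated as protein-coding, unlike the members. The libraries were stranded, but how molecular identifiers, strand and reads on shared exons were treated in counting is not given in the sources used here. Dividing by the step of each library gave whole reads for 100% of values (tolerance 1e-06). Of 60676 identifiers, 60357 matched GENCODE release 44, which gave names and coordinates.

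Each depletion was tested against untreated within its table by limma 3.58.1 (R 4.3.3; two-sided, with a mean-variance trend, not robust) on log2(normalized count + 1). Genes needed a mean of 10 or more, with Benjamini-Hochberg adjustment over all of them and a threshold of 0.05. Fold changes on this scale understate those of low genes. The depletions were compared on all 6 libraries, with recovered reads scaled together by median-of-ratios. Separate cultures are not stated, so p-values measure only the spread between these samples, which may be technical.

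The members and lists were chosen with earlier results of these data known. Of each list and depletion, the rule named up to 3 called genes with the largest change and a mean of at least 100 in the higher group. Other list genes in the text were picked for their role after their values were seen. For GPX2, which changed most, the rule named the 5 nearest genes. SOD2 was not analysed here. Protein sequences were replaced by codon counts. As alternatives, limma was run with a pseudocount of 0.5 or 8, without filter, with a minimum mean of 50, without trend, after quantile normalization, with a replicate block, and on all 6 libraries or the 4 depleted ones. Recovered reads were also tested by edgeR 4.0.16 (TMM) and DESeq2 1.42.0, and each library was left out in turn. The counts of the lists under other scalings were added after seeing the data. The code was tested on simulated data. Tables and plots were made in Python 3.11.15 (numpy 2.4.6, pandas 2.3.3, matplotlib 3.10.9).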

Additional observations from a re-analysis of the deposited data

How the results depend on the processing

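Of 352 values of the 8 tested members under the alternatives, 335 kept their direction and their side of the threshold, 12 lost the call, 1 gained it and 4 changed sign. With quantile normalization 2 members in place of 1 were called higher after histidine depletion, HMOX1 being added. The changes of sign were values near 0. HMOX1 after histidine depletion was -0.0056 without Hdepl replicate 2 and, among the left-out libraries, at most 0.038, without Hdepl replicate 1. KEAP1 after tryptophan depletion was -0.037 without untreated replicate 1, -0.036 without Wdepl replicate 1 and, of this kind, at most 0.069, without untreated replicate 2, and NQO1 was -0.036 with quantile normalization. Without the trend, GCLC lost its call after histidine depletion (adjusted p = 0.13), as it did with no filter (adjusted p = 0.0637; limma), and so did NFE2L2 (0.0948) and NQO1 (0.0973) after tryptophan depletion. NFE2L2 also lost it with quantile normalization, where its value was 0.047 (limma, adjusted p = 0.137). Leaving out a library left 1 in its group, so that the spread came from the other groups. The calls lost in such fits were those of GCLC after histidine depletion and of NFE2L2 and NQO1 after tryptophan depletion. These 3 changes kept their sign there. The cause of these shifts was not tested.

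Of 1760 values of the 40 list genes named by rule, 1735 were unaltered in direction and call, 13 lost it, 6 gained it and 6 changed sign. FTH1 after histidine depletion was -0.25 and called lower with quantile normalization, -0.046 without untreated replicate 1, -0.023 without Hdepl replicate 1 and, of this kind, at most 0.067, without untreated replicate 2. UGT1A6 after tryptophan depletion was 0.049 without untreated replicate 2 and 0.021 without Wdepl replicate 1, and, of this kind, at its lowest -0.14, without untreated replicate 1. PRDX3 between the depletions was -0.073 with quantile normalization. With quantile normalization the thioredoxin list had 2 genes higher after histidine depletion in place of 4, and the NADPH list 0 in place of 1. The medians of the 8 lists against untreated kept their sign with quantile normalization, edgeR and DESeq2.

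A replicate block gave the same counts of members, 1 higher and 6 lower after histidine depletion and 6 higher and 1 lower after tryptophan depletion, and over all genes 7311 higher and 7121 lower after histidine depletion in place of 7149 and 6981. No pairing by number was seen, since differences of same-numbered libraries correlated at 0.042, 0.0020 and -0.041 over 18264 genes. With 2 libraries per group this cannot show whether same-numbered samples were handled together. With 2 libraries per group, the 1.09-fold differences of GCLC and NFE2L2 and the 1.10-fold one of NQO1 are at the limit of what could be called, and at 1 to 7 reads SRXN1 allows no comparison.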
